A study of Mus musculus with 9 samples.

Results

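The genes described here are 43 components and targets of transforming growth factor beta (TGF-beta), activin and bone morphogenetic protein (BMP) signalling, measured by array in bone enriched for osteocytes, the cells embedded in the mineral. The list named 44 genes, of which 43 were measured among 18194 genes in all, and Bmp3 was not analysed here. Each gene was represented by probe sets annotated to it alone, and where several existed (29 of the 43 genes) by the one with the highest mean over the 9 arrays. The list holds 4 latent TGF-beta binding proteins, 3 TGF-beta ligands, 2 activin subunits, 6 BMP ligands, 5 secreted binding proteins, 3 TGF-beta receptors, 7 BMP and activin receptors, 6 receptor and common Smads, 2 inhibitory Smads and 5 target genes.

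The samples came from wild-type CD1 mice, an outbred stock, 16 to 18 weeks old. The 3 groups were virgin females, dams on day 12 of lactation, and dams 7 days after their pups had been taken away on day 12 of lactation (post-lactation), with litters set to 8 to 13 pups and 3 arrays in each group. RNA came from pulverised tibial shafts, although 1 step of the labels' protocol names femurs. The protocol was meant to remove periosteum, marrow and surface cells by centrifugation and repeated collagenase and trypsin digestion. In every array the mean of 10 neutrophil markers still lay above that of 9 osteocyte markers (values below), so RNA of blood cells was present. No label says that each array is a separate mouse, so the p-values reflect spread among arrays that may be technical. Groups follow the sample titles: another label of the post-lactation arrays reads virgin.

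TGF-beta is secreted in an inactive complex with its own propeptide and a latent TGF-beta binding protein (Ltbp), which tethers it to matrix until it is released. Active TGF-beta and activins bring together type I and type II receptor kinases that phosphorylate Smad2 and Smad3, BMPs use related receptors that phosphorylate Smad1, Smad5 and Smad9, and both branches share Smad4. Smad6 and Smad7 are feedback inhibitors, and Id1, Id2 and Id3 are widely used as readouts of the BMP branch. In bone, matrix stores of TGF-beta and BMPs are released when mineral is resorbed. TGF-beta signalling in osteocytes is known to take part in remodelling of the wall of their own lacunae, a process the study's design text gives as its subject and lactation as its setting.

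The values are log2 signals after robust multi-array averaging (RMA), a method that corrects, normalises and summarises the probes of a probe set. Some facts of the whole data set touch every result below. Exactly equal values tied each array to 2 others from the other groups: 2.50% to 44.1% of probe sets were equal within such a trio, and at most 2 of 45101 between trios. Set 1 comprised the arrays virgin 1, lactation 3 and post-lactation 1. Set 2 comprised the arrays virgin 2, lactation 2 and post-lactation 3, and the rest made up set 3. Set 1 differed as a whole: its pairs of arrays were equal in 2.50% to 2.72% of probe sets, those of sets 2 and 3 in 36.1% to 44.1%. Array medians lay at 4.32 to 4.34 for set 1, at 4.80 to 4.82 for set 2 and at 4.57 for set 3, and 19 of the 43 genes had at least 1 exactly equal pair of arrays within a set. Virgin 1 lay apart: sclerostin (Sost), an inhibitor of Wnt signalling made by osteocytes, read 8.14 there against 13.39 and 13.55 in virgin 2 and 3 and 11.59 to 13.00 in the other 6 arrays. The mean of 9 osteocyte markers, as log2 above the array median, was 3.78 in virgin 1 and 4.96 to 5.90 elsewhere, while that of 10 neutrophil markers was 8.80 in virgin 1 and 7.66 to 8.40 elsewhere. Other blood cell lists did not follow the neutrophil list. Virgin 1 was the lowest array for 9 B lymphocyte markers (1.41 against 2.29 to 4.15). It was also lowest for 8 megakaryocyte markers (3.64 against 3.88 to 5.20) and 10 macrophage markers (2.06 against 2.16 to 2.67). For erythroid markers virgin 1 read 3.35, between virgin 2 and 3. Markers of other cells moved with the groups: 10 osteoclast markers averaged 2.61 to 2.66 in virgin, 3.50 to 3.91 in lactation and 2.57 to 3.13 in post-lactation arrays, and 10 erythroid markers 2.72 to 3.73, 4.12 to 4.57 and -0.24 to 0.52. Fewer cells of a type and less RNA per cell cannot be told apart in such samples, and the part of these markers in the results below was not tested.

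**Figure D1:**
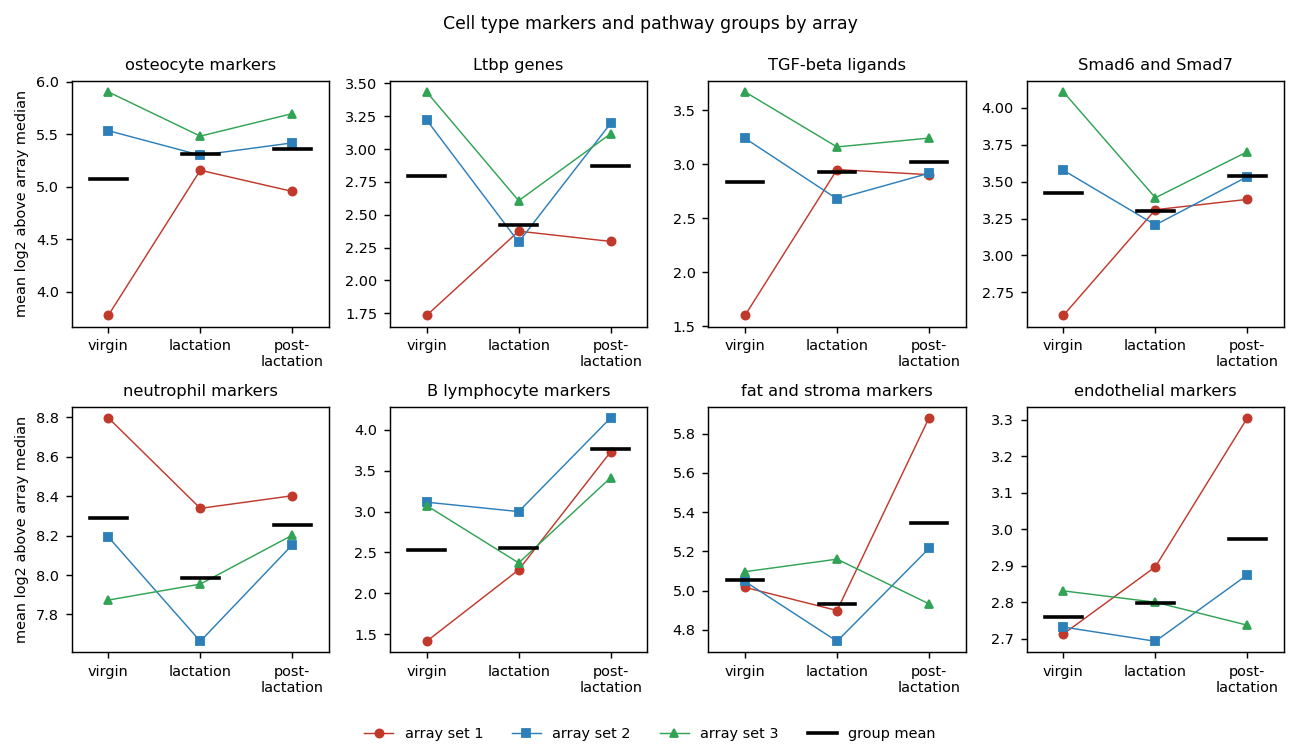
Mean log2 signal above the array median (y axis) of cell type marker lists and of 3 groups of pathway genes, by group (x axis). Points are arrays, lines join the 3 arrays of one set and black bars are group means. Virgin 1, the virgin array of set 1, is lowest for osteocyte markers (3.78), B lymphocyte markers (1.41), Ltbp genes, TGF-beta ligands and Smad6 with Smad7. It is highest for neutrophil markers (8.80).

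Most of the 43 genes gave a signal above the dimmest range in this tissue. Of the 43 genes, 40 had a mean signal at or above 4.87, the 40th percentile of all gene means, a level that 60.0% of all genes reach by construction. Of 76 other pathway genes, described further below, 46 reached it. Nog, which binds and blocks BMPs, Bmpr1b, a type I BMP receptor, and Smad9, a BMP Smad, lay below that level in all 3 groups, at 2.38 to 3.79 in single arrays, and their differences are not described, although the counts, medians and plots over the 43 genes include them. The pathway genes varied more from array to array than most: the range over the 9 arrays had a median of 1.26 log2 units for the 43 genes, against 0.88 for all genes with a mean at or above 4.87.

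None of the 43 genes passed the test in any of the 3 comparisons. limma with Benjamini-Hochberg adjustment over all 18194 genes called 0 of 43 at an adjusted p under 0.05 for lactation against virgin, where it called 0% of all genes, 0 of 43 for post-lactation against lactation (0.709% of all genes) and 0 of 43 for post-lactation against virgin (0.176%). At an unadjusted p under 0.05 there were 0, 1 and 2 of the 43, against 1.8%, 5.06% and 2.09% of all genes. With the array set as a block the 43 again gave 0 calls in each comparison, where 0.022%, 3.53% and 0.451% of all genes were called. Without virgin 1 they gave 0 calls, where 0%, 0.758% and 0.115% were called, and with both changes together 0 calls, where 0%, 5.1% and 0.022% were called. All differences below are therefore descriptions of these arrays, and the way virgin 1 sets the direction of many of them is part of the description.

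Promoters of 5 genes whose values are given below are shown first, some of them textbook Smad targets. The 5 were picked by hand with their values known. Of these, Ltbp3, Tgfb2, Smad6 and Id3 were low together in virgin 1, and any part of Smads in that was not tested. Each is the RefSeq sequence (GRCm38.p6) from 250 bases before to 30 bases after the annotated start, read 5′ to 3′ on the gene's strand, in lower case. Capitals mark GTCTAGAC, the palindromic Smad element, and CAGAC or its reverse complement GTCTG, the shorter Smad box; GGCGCC, a GC-rich element bound by Smads, was searched too and is in none of the 5. The windows are Ltbp3 (chr19:5740650-5740929, plus strand), Tgfb2 (chr1:186705960-186706239, minus strand), Fstl1 (chr16:37776805-37777084, plus strand), Smad6 (chr9:64022030-64022309, minus strand) and Id3 (chr4:136143572-136143851, plus strand).
Ltbp3: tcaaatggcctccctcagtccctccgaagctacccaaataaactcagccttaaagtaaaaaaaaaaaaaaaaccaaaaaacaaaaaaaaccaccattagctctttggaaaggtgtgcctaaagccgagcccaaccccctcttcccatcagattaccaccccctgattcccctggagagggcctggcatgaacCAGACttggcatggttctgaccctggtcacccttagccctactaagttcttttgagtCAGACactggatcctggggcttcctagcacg
Tgfb2: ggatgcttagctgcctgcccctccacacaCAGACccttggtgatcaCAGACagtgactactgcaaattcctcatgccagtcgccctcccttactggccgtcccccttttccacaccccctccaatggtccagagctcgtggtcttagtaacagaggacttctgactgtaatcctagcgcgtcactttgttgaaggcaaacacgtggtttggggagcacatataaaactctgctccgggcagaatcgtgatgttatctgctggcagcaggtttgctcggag
Fstl1: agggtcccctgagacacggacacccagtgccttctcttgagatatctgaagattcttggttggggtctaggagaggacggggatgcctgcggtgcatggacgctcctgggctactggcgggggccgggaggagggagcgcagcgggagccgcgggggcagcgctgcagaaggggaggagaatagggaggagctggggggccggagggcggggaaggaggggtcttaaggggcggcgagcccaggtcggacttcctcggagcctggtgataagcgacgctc
Smad6: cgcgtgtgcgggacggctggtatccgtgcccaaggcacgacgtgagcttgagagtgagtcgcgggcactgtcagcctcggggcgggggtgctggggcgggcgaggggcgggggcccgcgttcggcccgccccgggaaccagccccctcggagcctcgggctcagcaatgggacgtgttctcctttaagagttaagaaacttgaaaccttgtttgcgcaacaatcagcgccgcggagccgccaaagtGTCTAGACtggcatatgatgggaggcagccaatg
Id3: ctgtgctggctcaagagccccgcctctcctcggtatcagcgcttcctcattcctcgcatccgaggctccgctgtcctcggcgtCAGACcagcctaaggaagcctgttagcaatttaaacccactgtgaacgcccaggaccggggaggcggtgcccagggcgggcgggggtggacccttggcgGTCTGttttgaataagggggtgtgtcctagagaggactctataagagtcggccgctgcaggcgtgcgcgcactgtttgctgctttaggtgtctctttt
The Smad6 window held GTCTAGAC at position -4 from the start, and the Ltbp3, Tgfb2 and Id3 windows held 2 Smad boxes each. How many of all windows hold 2 was not counted. Windows of 250 bases before to 50 after the start were searched on both strands, 32851 in all. For the list, 41 windows from 33 genes were counted. List genes on the chromosome that carries Smad2, Smad4 and Smad7 were left out of that count. Windows on that chromosome stayed among all windows, so the list shares below do not cover those genes. Further list genes, Id1 among them, had no window in the source used and are not covered either. GTCTAGAC was in 1 of the 41 (2.44%) and in 0.213% of all windows, and CAGAC in 46.3% of the 41 and 49.6% of all. GGCGCC was in 31.7% of the 41 windows, from 11 genes, and in 11.9% of all. These are letter matches, not bound sites, and the Fstl1 window shows only that none of the letters searched are in it.

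The latent TGF-beta binding proteins are grouped here by their family name, and binding of TGF-beta by each of them was not measured. Ltbp1 read 6.63, 9.58 and 9.52 in virgin arrays 1, 2 and 3, 8.42, 8.33 and 7.95 in lactation arrays 1, 2 and 3, and 8.03, 9.13 and 9.37 in post-lactation arrays 1, 2 and 3. Virgin 2 and 3 were the highest of the 9 arrays and virgin 1 the lowest. Lactation minus virgin was -0.34 (SE 0.66) with all arrays and -1.31 (SE 0.36, adjusted p = 1) without virgin 1, and the within-set differences were 1.32, -1.25 and -1.09 in sets 1, 2 and 3. The 2 further Ltbp1 probe sets, both dim, gave 0.12 and -0.37 with all arrays and -0.34 and -0.94 without virgin 1. Ltbp3 read 8.05, 10.65 and 10.92 in the virgin, 10.18, 10.03 and 9.56 in the lactation and 9.58, 10.63 and 10.22 in the post-lactation arrays. Virgin 1 was again the lowest array and virgin 2 and 3 the highest, with within-set differences of 1.51, -0.61 and -0.75 between lactation and virgin. A second bright Ltbp3 probe set gave -0.50 for lactation minus virgin without virgin 1, where the one used gave -0.86, and 2 dim ones gave 0.00 and -0.07. Ltbp2 read 4.82, 6.70 and 6.40, then 4.93, 5.12 and 4.24, then 4.49, 5.81 and 7.18. Its lactation mean (4.76) lay below the 40th percentile level, and virgin 2 and 3 were on average at least 3.21-fold above that level. All 3 Ltbp2 values of set 1 (4.82, 4.24 and 4.49) lay below that level, so its set 1 has no usable difference. In sets 2 and 3 lactation minus virgin was -1.58 and -1.47 for Ltbp2, and post-lactation minus lactation 2.06 and 0.87, with the lactation array of set 2 at 5.12 and that of set 3 at 4.93. Ltbp4 stayed between 4.46 and 5.22.

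Of the ligands, Tgfb2 varied most. It read 5.27, 9.69 and 9.92 in virgin arrays 1, 2 and 3, 8.43, 7.99 and 7.46 in lactation, and 7.42, 8.67 and 8.02 in post-lactation. Virgin 2 and 3 lay above every lactation and post-lactation array, and virgin 1 below every one. Lactation minus virgin was -0.34 (SE 0.96, adjusted p = 1) over all arrays, and without virgin 1 it was -1.85 (SE 0.38), a 3.60-fold difference whose adjusted p was 1, or 0.148 with the array set as a block as well. Post-lactation minus virgin was -0.26 (SE 0.96) over all arrays and -1.77 (SE 0.38) without virgin 1, with an adjusted p of 0.238, or 0.0823 with the set as a block. Within set 1 the lactation array was above virgin 1 by 2.19, and within sets 2 and 3 the differences were -1.70 and -1.50. The 3 further probe sets of Tgfb2 gave -1.57, -1.58 and -0.98 for lactation minus virgin without virgin 1. Tgfb1, the ligand most abundant in bone matrix, and Tgfb3 differed less between groups, by 0.13 (SE 0.26) and 0.49 (SE 0.33) for lactation minus virgin, and by -0.15 (SE 0.23) and 0.05 (SE 0.23) without virgin 1. A second Tgfb1 probe set gave -0.14 with all arrays and -0.77 without virgin 1.

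The activin subunits did not share this shape. Inhbb, the beta-B subunit, read 9.10, 7.39 and 7.67 in virgin, 8.29, 8.17 and 8.11 in lactation and 8.28, 8.34 and 8.85 in post-lactation arrays, so that virgin 1 was the highest array and virgin 2 and 3 the lowest. Lactation minus virgin was 0.14 (SE 0.38) with and 0.66 (SE 0.24, adjusted p = 1) without virgin 1, and post-lactation minus virgin 0.44 (SE 0.38) and 0.96 (SE 0.24, adjusted p = 0.424). A second, dimmer Inhbb probe set gave -0.04 and 0.02 for these differences without virgin 1. Inhba, the beta-A subunit, ranged from 7.89 to 8.70 with overlapping groups.

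Among the BMPs, Bmp2, an inducer of osteoblast differentiation, read 7.69 in virgin 1 and 8.56 to 10.27 in the other arrays, with overlapping groups. Bmp7 and Bmp8a were likewise lowest in virgin 1, at 5.37 and 5.28. Bmp6, which in the liver drives hepcidin and in bone promotes osteoblast differentiation, read 5.70, 5.97 and 6.46 in virgin, 6.46, 5.91 and 5.42 in lactation and 6.89, 6.46 and 6.77 in post-lactation arrays. Its 3 arrays of set 3 had exactly equal values, so the difference rested on sets 1 and 2. Post-lactation minus lactation was 0.78 (SE 0.29, adjusted p = 0.705), and the within-set differences were 1.47, 0.86 and 0. That adjusted p was the smallest of the 43 genes over the 3 comparisons in the main limma fit, which has no block. With the array set as a block it was 0.235 in limma, above that of Ltbp2 (0.191). Without lactation 3 the Bmp6 difference was 0.52. Bmp4 and Bmp5 lay within 6.50 to 7.79 with overlapping groups.

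Fstl1, a secreted follistatin-like glycoprotein that binds BMPs, was the secreted binding protein whose groups did not overlap. It read 8.98, 9.82 and 10.05 in virgin, 10.14, 10.09 and 9.23 in lactation and 10.70, 10.22 and 10.56 in post-lactation arrays. Every post-lactation array was above every virgin and every lactation array. Post-lactation minus lactation was 0.67 (SE 0.33, adjusted p = 1), with within-set differences of 1.48, 0.47 and 0.08, and post-lactation minus virgin was 0.88 (SE 0.33, adjusted p = 1), with 1.72, 0.74 and 0.17. Without virgin 1 the difference from virgin was 0.56 (SE 0.30), and without lactation 3, the lowest lactation array, the difference from lactation was 0.38. A second Fstl1 probe set of similar brightness gave 0.49 and 0.79. Post-lactation 1, the highest Fstl1 array, also had the highest mean of 6 fat and stromal markers (5.88 against 4.74 to 5.21 elsewhere) and of 10 endothelial markers (3.31 against 2.69 to 2.90), and their part was not tested. Grem1, a BMP antagonist, read 5.28 in lactation 3 and 6.30 to 7.95 elsewhere, Fst, the activin-binding follistatin, 4.94 to 6.62, and Fstl3 4.75 to 5.71.

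**Figure D2:**
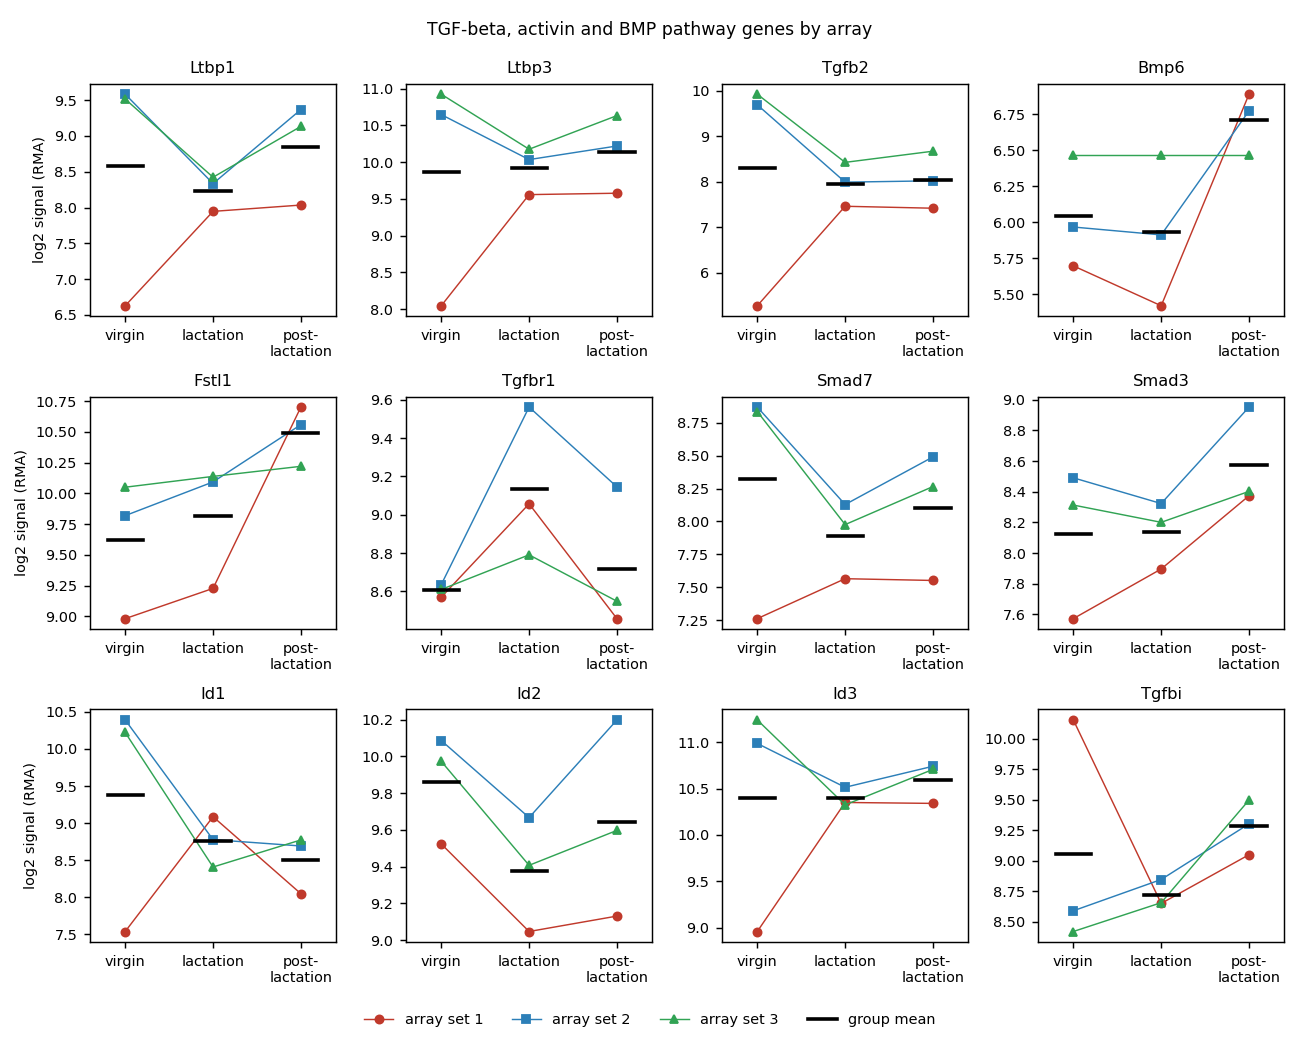
Log2 signal (y axis, a separate scale in each panel) of 12 pathway genes by group (x axis). Points are arrays, lines join the 3 arrays of one set and black bars are group means. For Ltbp1, Ltbp3, Tgfb2, Id1 and Id3 the lines of sets 2 and 3 drop from virgin to lactation while that of set 1 climbs from virgin 1; for Fstl1 all 3 post-lactation arrays sit at or above 10.22, over every other array.

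Of the TGF-beta receptors, Tgfbr1, the type I receptor kinase, was the one gene of the 43 whose lactation and virgin arrays did not overlap with all arrays in. It read 8.57, 8.63 and 8.61 in virgin, 8.79, 9.56 and 9.06 in lactation and 8.46, 8.55 and 9.15 in post-lactation arrays. Lactation minus virgin was 0.53 (SE 0.26, adjusted p = 1, or 0.376 with the array set as a block), a 1.45-fold difference, and 0.51 (SE 0.29) without virgin 1. The lactation array was the highest of its set in all 3 sets, above virgin by 0.49, 0.93 and 0.18. Without lactation 2 the difference was 0.32, and 2 further probe sets of Tgfbr1, both dim, gave 0.00 and -0.07. Lactation arrays all above virgin were found for 1 of the 43 genes and 2.06% of all genes, and all below for 0 of the 43 and 0.698%. Tgfbr2, the type II receptor, read 8.50 in virgin 1 and 9.36 to 9.97 elsewhere, and Tgfbr3, the coreceptor betaglycan, 8.96 to 9.60.

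The BMP and activin receptors differed little between groups. Bmpr1a, Bmpr2, Acvr1, Acvr2a and Acvr2b differed between lactation and virgin by -0.04 to 0.33, with every SE between 0.25 and 0.36. For the type I activin receptor Acvr1b, virgin 1 read 7.97 and the other 8 arrays 6.84 to 7.05, so that the difference was -0.42 (SE 0.27) with virgin 1 and -0.09 (SE 0.20) without it.

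By the probe sets used, the receptor and common Smads showed small differences. Smad3, which carries TGF-beta and activin signals, read 7.57, 8.49 and 8.31 in virgin, 8.20, 8.32 and 7.90 in lactation and 8.37, 8.40 and 8.95 in post-lactation arrays. Post-lactation minus lactation was 0.44 (SE 0.28, adjusted p = 1), with 0.48, 0.63 and 0.20 in sets 1, 2 and 3, and 0.25 without post-lactation 3. Every post-lactation array was above every lactation array. Smad4, the shared partner, did so too, at 9.50 to 9.65 against 9.35 to 9.43, a difference of 0.20 (SE 0.19). For Smad4, 2 further probe sets gave 0.20 each, but their lactation and post-lactation arrays overlapped. Against virgin these 2 parted: lactation minus virgin was 0.76 and 0.08, and post-lactation minus virgin 0.96 and 0.28. Without virgin 1 the values were 0.48 and -0.26, and 0.69 and -0.06. For Smad3, 2 further probe sets, both dim, gave -0.002 and -0.03. Smad1, Smad2 and Smad5 had differences of 0.08 to 0.18 for post-lactation minus lactation and overlapping groups. Further probe sets gave 0.49 and 0.12 for Smad5 and -0.22 for Smad2. For lactation minus virgin without virgin 1, the 3 Smad5 probe sets gave -0.35 (the one used), -0.74 and -0.04.

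Among the feedback inhibitors, Smad7 read 7.26, 8.87 and 8.83 in virgin, 7.98, 8.13 and 7.57 in lactation and 7.55, 8.27 and 8.49 in post-lactation arrays. Virgin 2 and 3 were the highest arrays and virgin 1 the lowest. Lactation minus virgin was -0.43 (SE 0.41) with all arrays and -0.96 (SE 0.30, adjusted p = 1) without virgin 1, with 0.30, -0.74 and -0.86 within sets. A second, dimmer Smad7 probe set gave -0.01 with all arrays and -0.46 without virgin 1. Smad6 read 6.56 in virgin 1 and 7.70 to 8.52 in the other arrays, and its lactation and virgin arrays of set 2 had exactly equal values.

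The Id genes, which encode inhibitors of basic helix-loop-helix factors, included the gene with the largest difference of the 43 between post-lactation and virgin once virgin 1 was left out, Id1. Id1 read 7.54, 10.39 and 10.22 in virgin, 8.41, 8.78 and 9.09 in lactation and 8.05, 8.77 and 8.69 in post-lactation arrays. Virgin 2 and 3 stood more than 1 log2 unit above each of the other 7 arrays, and virgin 1 was the lowest. Lactation minus virgin was -0.63 (SE 0.61, adjusted p = 1) over all arrays and -1.55 (SE 0.29, adjusted p = 1) without virgin 1, a 2.93-fold difference, and the within-set values were 1.55, -1.61 and -1.81. Post-lactation minus virgin was -0.88 (SE 0.61, adjusted p = 1) and, without virgin 1, -1.80 (SE 0.29), a 3.49-fold difference with an adjusted p of 0.062, or 0.177 with the set as a block. Id3 read 8.96, 10.99 and 11.24, then 10.32, 10.51 and 10.35, then 10.34, 10.71 and 10.74, with the same arrays at the ends of its range. Its lactation minus virgin difference was 0.00 (SE 0.47) with virgin 1 and -0.72 (SE 0.22) without. Id2 read 9.52, 10.09 and 9.97 in virgin, 9.41, 9.67 and 9.05 in lactation and 9.13, 9.60 and 10.20 in post-lactation arrays. Its lactation array was below the virgin array in all 3 sets, by -0.48, -0.42 and -0.57, for an overall difference of -0.49 (SE 0.29, adjusted p = 1, or 0.247 with the set as a block). Without virgin 1 it was -0.66 (SE 0.32), and without lactation 3 it was -0.32. Id4 had 8.49 in virgin 1 and 8.85 to 9.48 elsewhere.

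Tgfbi, a matrix protein named for its induction by TGF-beta, ran the other way. It read 10.15, 8.59 and 8.42 in virgin, 8.66, 8.85 and 8.65 in lactation and 9.05, 9.50 and 9.30 in post-lactation arrays. Virgin 1 was the highest array, and all 3 post-lactation arrays were above all 3 lactation arrays and above virgin 2 and 3. Post-lactation minus lactation was 0.57 (SE 0.38, adjusted p = 1), with 0.40, 0.46 and 0.84 in sets 1, 2 and 3. When the array set was blocked and virgin 1 left out its adjusted p was 0.0605, the smallest of the 43 genes over all settings run. Post-lactation minus virgin was 0.23 (SE 0.38) with and 0.78 (SE 0.22, adjusted p = 0.664) without virgin 1. The 3 further Tgfbi probe sets gave 0.45 to 0.48 for post-lactation minus lactation.

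Over the whole list, lactation against virgin depended on virgin 1. With all arrays 23 genes had a difference above 0 (52.5% of all genes) and 20 below (47.2%), with a median of 0.01, and the median of all genes was 0.01. Without virgin 1, 7 were above 0 (16.3%, against 32.4% of all genes) and 36 below (83.7%, against 67.6%), with a median of -0.22, and the median of all genes was then -0.08; the virgin group then had no array of set 1. Virgin 1 was the lowest of the 9 arrays for 26 of the 43 genes (60.5%) and for 26.2% of all genes. As log2 above the array median, virgin 1 was at least 1 below the mean of virgin 2 and 3 for 11 of the 43 (25.6%), against 3.14% of all genes: Ltbp1, Ltbp2, Ltbp3, Tgfb2, Bmp2, Bmp7, Bmp8a, Smad6, Smad7, Id1 and Id3. It was at least 1 above for 3 of the 43 (Inhbb, Acvr1b and Tgfbi), against 5.09%. The 9 osteocyte markers moved likewise, with a median difference between lactation and virgin of 0.24 with and -0.57 without virgin 1. This shift was not particular to osteocyte markers. The median went from -0.001 to -0.85 for 9 B lymphocyte, from 0.24 to -0.07 for 8 megakaryocyte and from 0.13 to -0.06 for 10 macrophage markers. For osteoclast and erythroid markers it stayed above 0, at 1.186 and 1.225 with and 1.092 and 1.124 without virgin 1. The part of all these markers in the values of the pathway genes was not tested.

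**Figure D3:**
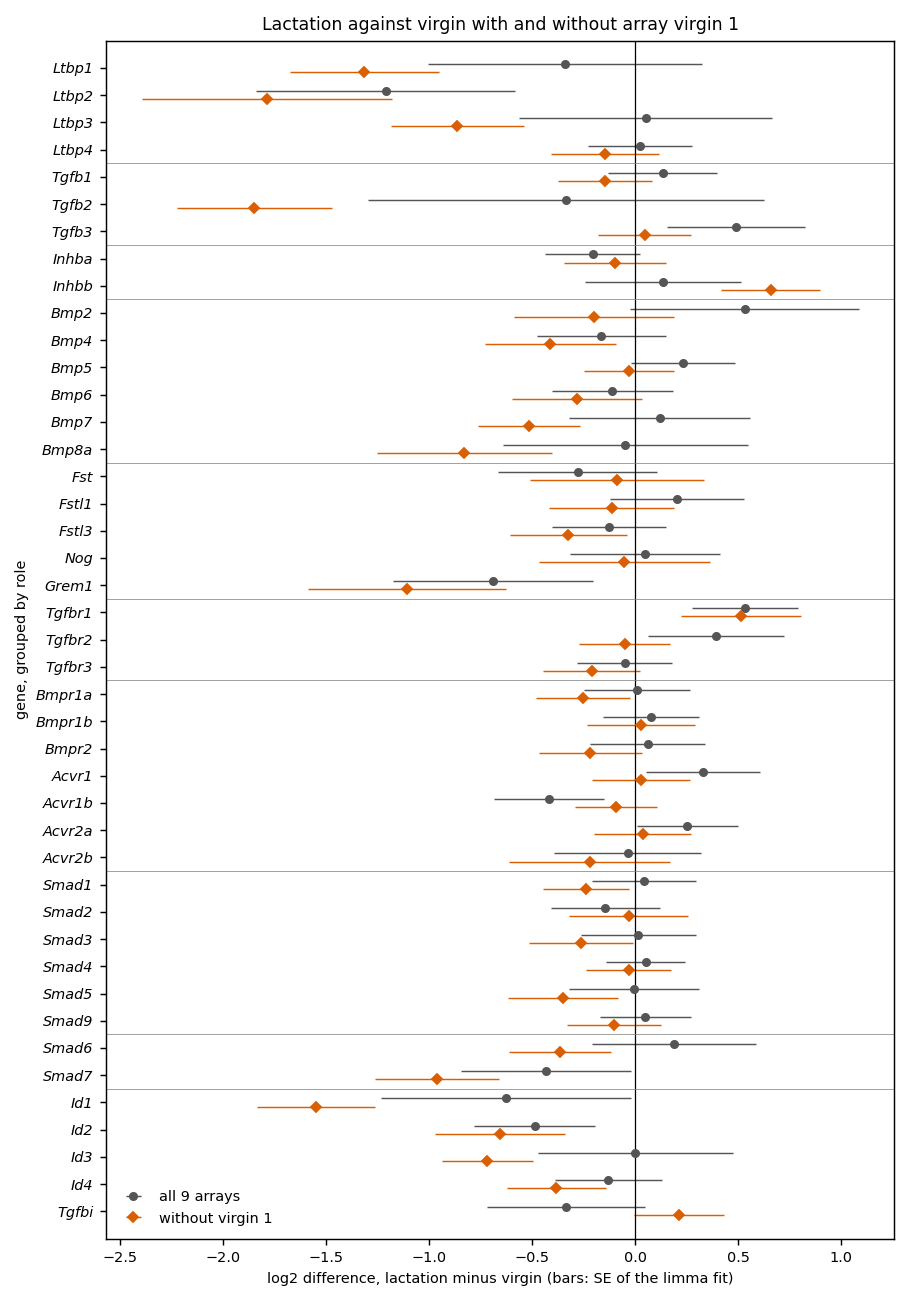
Log2 difference between lactation and virgin (x axis) of 43 pathway genes in order of role (y axis). Grey points use all 9 arrays and orange diamonds leave out virgin 1; bars are the SE of the limma fit. Tgfb2 shifts from -0.34 to -1.85, Id1 from -0.63 to -1.55 and Tgfbr1 from 0.53 to 0.51.

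With virgin 1 left out, the genes below virgin were more frequent in the list than among all genes, again with 0 calls after adjustment. The lactation arrays were all below virgin 2 and 3 for 13 of the 43 genes (30.2%, against 5.66% of all genes) and all above for 3 (6.98%, against 3.18%). At an unadjusted p under 0.05, 8 were lower (1.2% of all genes) and 1 was higher (1.13%). Within sets 2 and 3, lactation was at least 0.5 below virgin in both for 6 of the 43 (14.0%, against 0.693% of all genes): Ltbp1, Ltbp2, Ltbp3, Tgfb2, Smad7 and Id1. Lower in sets 2 and 3 but higher in set 1 were 15 genes (34.9%, against 8.15%), lower in all 3 sets 6 (14.0%, against 6.11%), and higher in all 3 sets 3 (6.98%, against 10.4%). The 9 osteocyte markers had median lactation minus virgin differences of -0.21 and -0.48 in sets 2 and 3. Those of B lymphocyte markers were -0.16 and -0.91, and those of osteoclast markers 1.49 and 0.95. Exact ties bear on these shares, because an equal pair can be neither higher nor lower and its groups overlap. Lactation and virgin values were exactly equal in set 2 or set 3 for 12 of the 43 genes (27.9%) and for 57.2% of all genes. Among genes with no equal pair in any set (31 of the 43), lactation was at least 0.5 lower in sets 2 and 3 for 6 (19.4%, against 1.63% of such genes in all), and lower in those sets but higher in set 1 for 15 (48.4%, against 19.2%). Lower in all 3 sets were 6 (19.4%, against 14.4%) and higher in all 3 sets 3 (9.68%, against 24.5%).

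The differences between post-lactation and lactation do not involve the virgin arrays. Their p-values do, because limma estimates the spread over all arrays in the fit. Of the 43 genes, 34 had a difference above 0 (79.1%, against 50.1% of all genes) and 9 below 0 (20.9%, against 49.6%), with a median of 0.16 against 0.00 for all genes. When all probe sets of a gene were averaged, 7 of the 43 differences took the other sign, among them Smad2 (-0.02) and Tgfb2 (-0.19). Without lactation 3 the median was 0.05 (-0.09 for all genes) and 10 of the 43 differences took the other sign, without post-lactation 3 it was 0.07 (-0.13), and without post-lactation 1 it was 0.26 (0.09). Higher in all 3 sets were 14 (32.6%, against 12.8%) and lower in all 3 sets 3 (6.98%, against 16.1%). Lactation and post-lactation values were exactly equal in set 2 or set 3 for 12 of the 43 (27.9%) and for 52.9% of all genes. Among genes with no equal pair, higher in all 3 sets were 14 of 31 (45.2%, against 27.6%) and lower in all 3 sets 3 of 31 (9.68%, against 34.7%). Groups that did not overlap were higher for 4 (9.3%, against 3.26%), namely Fstl1, Smad3, Smad4 and Tgfbi, and lower for 0 (4.38%). The medians within sets 1, 2 and 3 were 0.03, 0.19 and 0.04. Smad1, Smad2, Smad3, Smad4 and Smad5 were among the 34, and the 3 genes lower in every set were Bmp2, Tgfbr1 and Tgfbr2. Over the same step the osteoclast markers had a median difference of -0.98 and the erythroid markers of -4.77, and B lymphocyte markers 1.24; their part was not tested.

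Post-lactation against virgin again turned on virgin 1. With all arrays 34 genes were above 0 (79.1%, against 50.9% of all genes) and 9 below (20.9%, against 48.7%), with a median of 0.09. Without virgin 1, 13 were above (30.2%, against 28.6%) and 30 below (69.8%, against 71.4%), with a median of -0.10 against -0.09 for all genes. Without virgin 1 the post-lactation arrays were all below virgin 2 and 3 for 8 of the 43 (18.6%, against 5.01% of all genes) and all above for 3 (6.98%, against 2.75%). With virgin 1 in, non-overlapping groups were left for 1 gene, Fstl1, higher in post-lactation (1.17% of all genes), and for 0 genes in the lower direction (1.49%). Both comparisons with virgin share the 3 virgin arrays, so Tgfb2 and Id1, low in lactation and in post-lactation against virgin 2 and 3, rest on the same pair of virgin arrays in both.

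**Figure D4:**
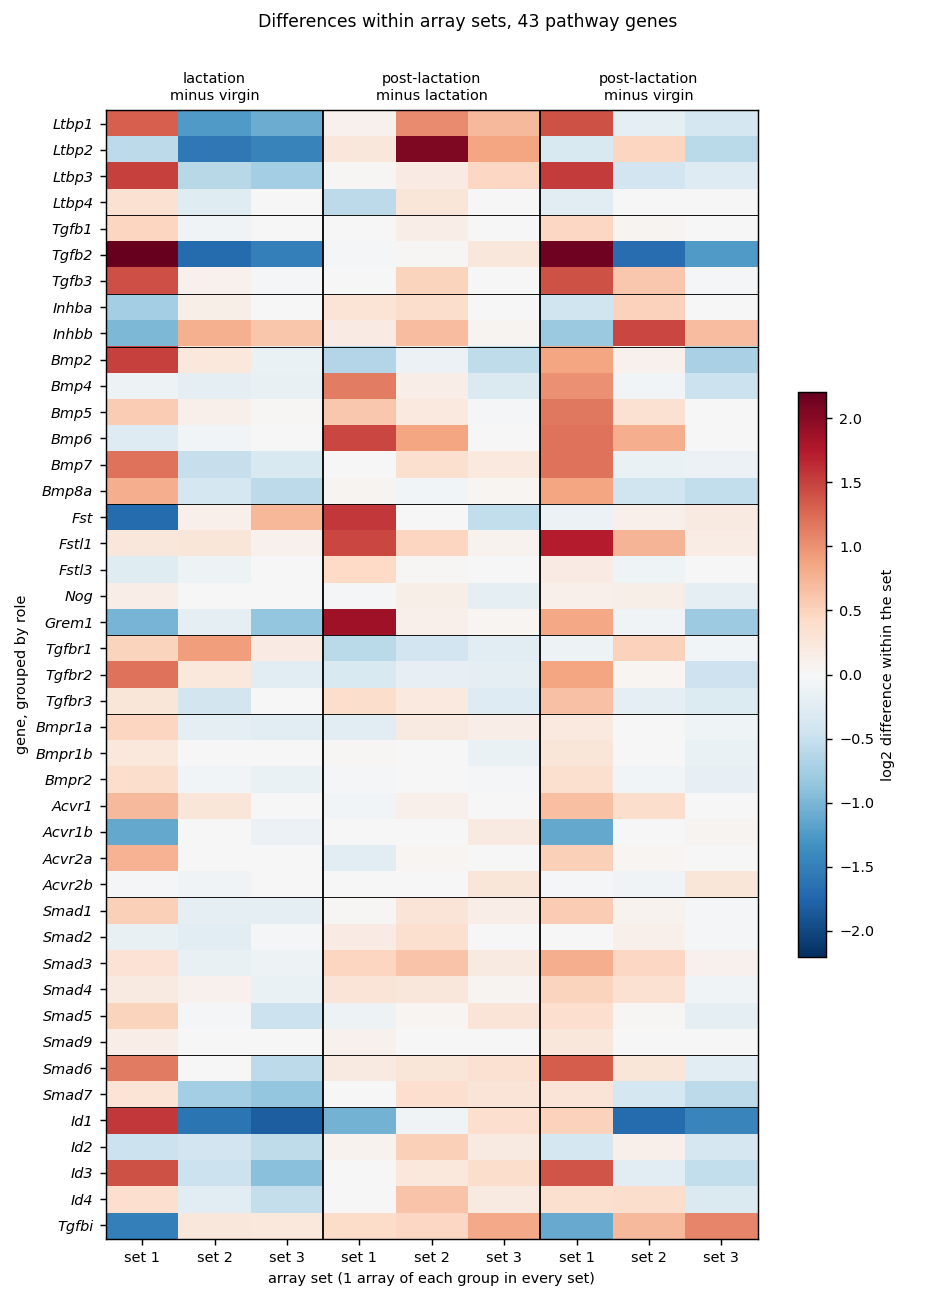
Log2 difference within each array set (colour, red higher and blue lower in the first-named group) for 43 pathway genes in order of role (y axis), by comparison and set (x axis). In lactation minus virgin, set 1 is red for Tgfb2 (2.19) and Id1 (1.55) where sets 2 and 3 are blue; in post-lactation minus lactation, 33 genes are above 0 in set 2 and 24 in sets 1 and 3 each.

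Other genes of the pathway came from a second list. Of 86 written down, 76 were measured, 46 with a mean at or above 4.87, and limma with all arrays called 0 of 76 in each of the 3 comparisons. With the set as a block, 1 of the 76 was called, in post-lactation against lactation, where 3.53% of all genes were called: Usp15, a deubiquitinase that acts on Smads and the type I TGF-beta receptor, with a difference of -0.92 (SE 0.08 in that fit, adjusted p = 0.00278) and -0.89, -0.83 and -1.03 within sets. Without the block its adjusted p was 0.445. Bmp1, a metalloproteinase that cleaves procollagen and BMP antagonists and is no BMP, read 7.00, 7.54 and 7.65 in virgin and 7.93, 8.63 and 8.47 in lactation arrays, a difference of 0.95 (SE 0.29, adjusted p = 1) without overlap. Gdf10, also called Bmp3b, differed by 1.05 (SE 0.36, adjusted p = 0.545) between post-lactation and lactation, with 1.23, 1.37 and 0.56 in sets 1, 2 and 3. When the array set was blocked and virgin 1 left out its adjusted p was 0.043, and 2 of the 76, Usp15 and Gdf10, were called, against 5.1% of all genes. Fbn2, a microfibril protein that holds latent TGF-beta complexes, was 0.83 (SE 0.42, adjusted p = 1) above lactation and 0.91 (SE 0.42, adjusted p = 1) above virgin in post-lactation arrays, and without virgin 1 the second difference was 0.43.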

How the data were processed

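Osteocyte-enriched tibia from 3 groups was hybridised, with 3 samples a group, to Affymetrix mouse arrays. The deposited values are log2 signals made by the authors with RMA, per the submitters' processing notes; whether RMA was run on all arrays together is not given in the sources used here. Arrays give no read depth, and precision rests on 3 samples a group.

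Of 45101 probe sets, 34958 had 1 gene in GEO's platform annotation, 932 several and 9211 none. The brightest probe set by mean over 9 arrays stood for each of 18194 genes. limma 3.58.1 in R 4.3.3 fitted group means over the 9 arrays (6 residual degrees of freedom) and p-values were adjusted by Benjamini-Hochberg over all genes, called under 0.05. The fit was tested on simulated data in which every gene had the same spread and no single array lay apart. That test does not measure how the fit performs at the spread of these arrays. The 3 array sets were found from equal values, with 2 arrays linked where over 1% of probe sets were equal. Differences are on the log2 scale, and SE is that of the fit.

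Alternatives were the array set or the replicate number as a block, leaving out each array, quantile normalisation, median centring, the mean of a gene's probe sets, a filter at the 40th percentile and a variance trend. The set block without virgin 1, and without set 1, were chosen after seeing the data. Genes given array by array were those whose groups did not overlap with a difference of at least 0.5, and others whose values the report turns on, the latter chosen after their values were seen. The member genes and all lists were chosen with earlier results of these data known. Promoter sequences are from RefSeq.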

Additional observations from a re-analysis of the deposited data

How the results depend on the processing

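None of the 43 genes was called in any of the 3 comparisons under any of the 18 other settings run. The smallest adjusted p over all settings was 0.148 for lactation against virgin, 0.0605 for post-lactation against lactation and 0.062 for post-lactation against virgin (limma). The median difference of the 43 genes ran from -0.22 to 0.13, from 0.05 to 0.26 and from -0.10 to 0.27 over the fits that left out 1 array, and from -0.13 to 0.01, from 0.14 to 0.19 and from -0.04 to 0.13 over the main and the remaining settings. The difference took the other sign under at least 1 setting for 33, 21 and 34 of the 43 genes; leaving out virgin 1 turned 18, 0 and 21. With the replicate number as a block 0 of the 43 genes were called in each comparison. The numbers did not pair the arrays: deviations of same-numbered arrays correlated from -0.41 to 0.67, and 1 of 9 arrays correlated best with its own number, against 0.47 to 0.73 within array sets. Signals below 4.87 leave Nog, Bmpr1b and Smad9 without a usable level.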
